A study of Mus musculus with 12 samples.

Results

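The genes described here are 10 that report on stress of the endoplasmic reticulum and on the integrated stress response: Trib3, Dnajb9, Ddit3, Atf4, Atf3, Hspa5, Xbp1, Herpud1, Sdf2l1 and Asns. They were chosen by name and found through the platform annotation, which gave them 21 of the 45037 probe sets tested and made them 10 of the 18193 genes with a probe set of their own. All 21 probe sets carried 1 gene symbol, none was lost to a filter, and each gene is given by its brightest probe set with the others beside it.

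The values are RMA log2 expression from 12 Affymetrix arrays of C3H10T1/2, a line of mouse embryo origin that behaves like mesenchymal progenitors. In the first experiment cells were transfected with siRNA-140, a mimic of the microRNA miR-140 (3 arrays), and set against cells given siRNA-96, the control (3 arrays). In the second, cells received an LNA oligonucleotide that blocks endogenous miR-140 (anti-miR-140, 3 arrays), set against one that blocks miR-449 (anti-miR-449, 3 arrays). All cells were of this line, and neither an untransfected group nor doses and times were given in the sources used here. Each control acts on another microRNA, so a difference can come from miR-140 or from the microRNA of the control. Whether the replicates are separate cultures is not in the labels, so the p-values measure only the spread between these samples, which may be technical. Values are listed in the order of replicates 1, 2 and 3.

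A microRNA finds its targets mainly by its seed, bases 2 to 8. The mature sequences of miR-140-3p, miR-96-5p and miR-449a-5p are shown from RefSeq (GRCm38.p6), 5′ to 3′, with the seed in capitals. The sequences shown do not share a seed. The labels name neither the arm nor the letters of the transfected molecules. The other arm of miR-140 is not shown, so these seeds need not be those of the molecules compared.
miR-140-3p, chr8:107551288-107551308, plus strand: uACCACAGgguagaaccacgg
miR-96-5p, chr6:30169506-30169528, minus strand: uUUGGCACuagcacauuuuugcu
miR-449a-5p, chr13:113037549-113037570, plus strand: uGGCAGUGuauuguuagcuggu

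Unfolded proteins in the endoplasmic reticulum (ER) are sensed by the membrane proteins IRE1 (gene Ern1), PERK (Eif2ak3) and ATF6 (Atf6). IRE1 splices the Xbp1 messenger, and XBP1 and the released part of ATF6 raise chaperones and the machinery that degrades misfolded ER proteins. PERK and its relatives GCN2, PKR and HRI phosphorylate the initiation factor eIF2alpha, which lowers general translation but favours that of ATF4, and ATF4 raises genes of amino acid supply as well as Ddit3, Atf3 and Trib3. The arrays measure messenger levels only: the splicing of Xbp1 and the translation of Atf4 cannot be read from them.

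Promoter sequence is shown for 3 genes that set the siRNA arrays apart from each other below (Dnajb9, Trib3 and Herpud1) and, for comparison, for Hspa5, which carries the textbook ER stress element. Each is the window of 250 bases before the annotated start, from RefSeq (GRCm38.p6), read 5′ to 3′ on the gene's strand. The motifs searched on both strands were the ER stress element ERSE (CCAAT, 9 bases of any kind, CCACG), its relative ERSE-II (ATTGG, 1 base, CCACG), the core of the unfolded protein response element (TGACGTGG), the C/EBP-ATF response element CARE (TGATGNAAN) that ATF4 and CHOP can bind, and CCACG, which lies within ERSE and ERSE-II. Capitals mark ERSE-II and CARE in Herpud1, CCACG in Dnajb9 and ERSE in Hspa5. In Trib3 none of the 5 motifs lay in the window.
Dnajb9, chr12:44210069-44210318, minus strand: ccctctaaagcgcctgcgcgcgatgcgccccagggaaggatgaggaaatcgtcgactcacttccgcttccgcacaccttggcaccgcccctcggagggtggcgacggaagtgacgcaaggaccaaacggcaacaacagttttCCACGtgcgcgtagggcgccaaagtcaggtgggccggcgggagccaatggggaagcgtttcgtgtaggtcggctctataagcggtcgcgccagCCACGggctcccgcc
Trib3, chr2:152344061-152344310, minus strand: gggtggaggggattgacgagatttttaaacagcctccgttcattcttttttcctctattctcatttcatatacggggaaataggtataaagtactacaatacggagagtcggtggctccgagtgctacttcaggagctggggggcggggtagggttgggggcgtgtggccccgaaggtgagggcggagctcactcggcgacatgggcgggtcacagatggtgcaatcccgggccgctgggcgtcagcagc
Herpud1, chr8:94386179-94386428, plus strand: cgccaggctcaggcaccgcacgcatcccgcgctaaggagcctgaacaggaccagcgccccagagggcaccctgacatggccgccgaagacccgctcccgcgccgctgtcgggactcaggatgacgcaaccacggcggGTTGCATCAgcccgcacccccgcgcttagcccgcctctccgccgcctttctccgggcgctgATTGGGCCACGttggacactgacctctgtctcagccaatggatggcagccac
Hspa5, chr2:34771840-34772089, plus strand: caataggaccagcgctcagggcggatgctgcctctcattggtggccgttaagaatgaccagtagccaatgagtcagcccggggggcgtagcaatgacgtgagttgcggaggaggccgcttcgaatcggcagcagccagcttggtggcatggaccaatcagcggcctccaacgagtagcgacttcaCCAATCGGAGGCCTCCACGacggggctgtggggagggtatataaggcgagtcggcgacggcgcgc

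All 10 genes had a window among the 32851 of the table. ERSE lay in the window of 1 of them, Hspa5 (first base at -65), and in 0.113% of all windows. ERSE-II lay in that of Herpud1 (first base at -52) and in 0.0304% of all windows. CARE lay in those of Atf3, Herpud1 and Asns and in 3.44% of all windows, CCACG in those of 6 genes and in 28.3% of all windows, and the TGACGTGG core in none of the 10 and in 0.563% of all windows. A match describes the letters only, and nothing is drawn from it about binding.

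The arrays carried the profile of mesenchymal cells. Col1a1 read 13.0 to 13.59, Col1a2 12.93 to 13.39 and Pdgfrb 8.65 to 9.83 over the 12 arrays. The 8 endothelial markers averaged 3.20 to 3.37 per array in the siRNA experiment and 3.43 to 3.60 in the anti-miR experiment, and the 7 blood cell markers 3.50 to 3.66 and 3.67 to 3.85. Within these lists Ptprc read 2.01 to 2.70 and Pecam1 read 2.38 to 3.01, but Cd68 read 4.55 to 5.66, Csf1r 4.77 to 5.63, Lyz2 4.66 to 5.16 and Kdr 4.11 to 4.46. Of the epithelial markers, Cdh1 read 2.58 to 4.47 and Epcam 5.67 to 6.81, and the mesenchymal marker Thy1 was also low, at 3.09 to 3.98. Array medians lay between 3.95 and 4.02 in the siRNA experiment and between 4.32 and 4.38 in the anti-miR experiment, and as the experiments may have been normalized apart, levels are compared only within an experiment.

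The profile of 2 siRNA arrays went against their labels. By correlation over all probe sets, siRNA-140 replicate 3 lay nearest to siRNA-96 replicate 2, and siRNA-96 replicate 1 nearest to siRNA-140 replicate 1. The mean of 21 interferon response genes was 4.55, 4.69 and 6.22 on the siRNA-140 arrays, against 4.72, 7.16 and 7.61 on the siRNA-96 arrays. The siRNA results of the 10 genes are therefore given both with and without these arrays, and those of the pathway genes without them, with the difference as labelled beside the genes that passed. Without them the contrast follows the very profile for which they were left out, so its p-values do not stand as separate support for a role of miR-140. The labels were kept as given.

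With the groups as labelled, none of the 10 stress genes passed the test when miR-140 was raised. limma called 0 of their 21 probe sets with siRNA-140 against siRNA-96, where it called 0% of all 45037 (Benjamini-Hochberg adjusted p under 0.05). At an unadjusted limma p under 0.05 there was 1 of 21, a dim probe set of Atf4, against 5.09% of all probe sets. The median log2 difference of the 10 genes was 0.035 and that of all genes 0.0267. The 95% intervals of the 10 differences reached from -0.69 to 0.60, and from -0.88 to 0.69 with the 6 siRNA arrays alone. As labelled, changes beyond 2-fold either way thus lay outside the interval of each of the 10 genes. This does not hold for Dnajb9 without the 2 arrays, where its interval reached -1.09 in the fit of the 4 remaining siRNA arrays.

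**Figure D1:**
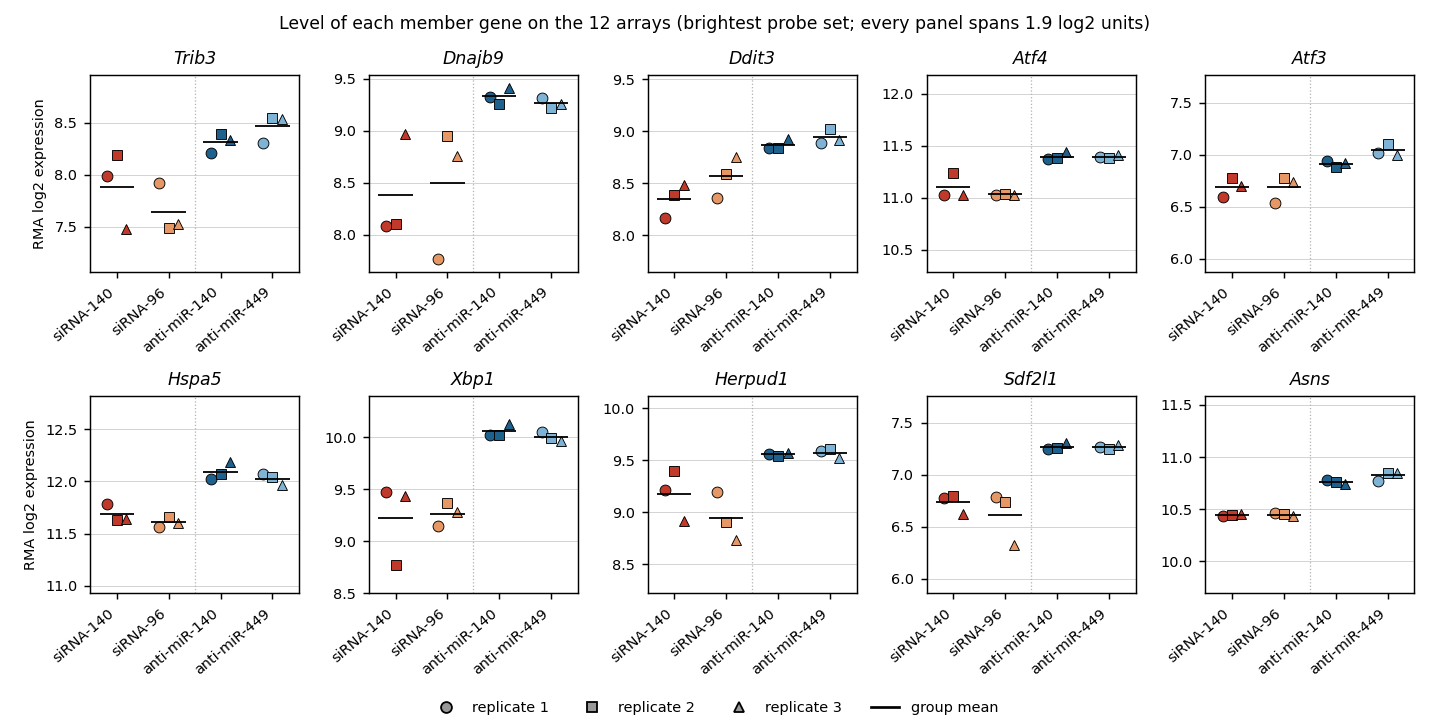
RMA log2 level (y axis) of the brightest probe set of each of the 10 genes on the 12 arrays, by group (x axis); symbols mark the replicate, bars the group mean. Dnajb9 spanned 1.2 log2 units over the siRNA arrays and 0.19 over the anti-miR arrays, while Asns spanned 0.03 and 0.11.

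Among the genes of the ATF4 branch, Atf4 itself, the transcription factor whose translation marks the integrated stress response, differed little. It read 11.03, 11.24 and 11.03 on the siRNA-140 arrays, against 11.03, 11.04 and 11.03 on the siRNA-96 arrays, a log2 difference of 0.07 ± 0.09 (SE; interval -0.12 to 0.25). Apart from siRNA-140 replicate 2, which was highest, the arrays read 11.03 or 11.04. A dimmer Atf4 probe set differed by -0.09 ± 0.15. The dimmest read 3.44, 3.67 and 3.47 with siRNA-140, against 3.13, 3.22 and 3.26 with siRNA-96. It was the only one of the 21 whose siRNA groups did not overlap (difference 0.32, limma adjusted p = 0.88), and groups failed to overlap in 6.1% of all probe sets (3.5% higher, 2.6% lower).

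Asns, which makes asparagine and is a classical target of ATF4, was the steadiest of the 10. It read 10.43, 10.44 and 10.45 with siRNA-140, against 10.46, 10.45 and 10.43 with siRNA-96, so the groups overlapped within 0.03. The difference was -0.01 ± 0.08 (interval -0.17 to 0.16), and its other probe set gave -0.03. Atf3, a stress-induced transcription factor, read 6.59, 6.78 and 6.70 with siRNA-140, against 6.54, 6.78 and 6.74 with siRNA-96. The ranges again lay over each other, and the difference was 0.00 ± 0.09 (interval -0.20 to 0.20).

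Ddit3 encodes CHOP, the transcription factor that links lasting ER stress to cell death. It read 8.17, 8.39 and 8.48 on the siRNA-140 arrays, against 8.36, 8.59 and 8.75 on the siRNA-96 arrays. Its difference of -0.22 ± 0.11 (interval -0.46 to 0.02) did not pass (limma adjusted p = 0.88), and the groups overlapped between 8.36 and 8.48. The dimmer Ddit3 probe set gave 0.00.

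Trib3, a pseudokinase that binds ATF4 and CHOP and holds their activity back, divided the siRNA arrays across their labels. It read 7.99, 8.19 and 7.48 on the siRNA-140 arrays, against 7.92, 7.49 and 7.53 on the siRNA-96 arrays. The high arrays were thus siRNA-140 replicates 1 and 2 with siRNA-96 replicate 1. As labelled the difference was 0.24 ± 0.17 (interval -0.12 to 0.60; limma adjusted p = 0.88). The second Trib3 probe set had the same arrangement, with 7.66, 7.98 and 7.28 for siRNA-140 against 7.80, 7.21 and 7.25 for siRNA-96.

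Of the ER branch, Hspa5, which encodes the main ER chaperone BiP, read 11.78, 11.63 and 11.64 with siRNA-140, against 11.56, 11.66 and 11.60 with siRNA-96. The groups overlapped, and the difference was 0.08 ± 0.09 (interval -0.11 to 0.27). Its other probe sets gave 0.00 and -0.14. Xbp1, the transcription factor gene that IRE1 splices, read 9.47, 8.77 and 9.44 with siRNA-140, against 9.15, 9.37 and 9.28 with siRNA-96. The low value of siRNA-140 replicate 2 was not shared by the other probe sets of Xbp1, of which the second brightest was highest on that array at 9.39, and the differences of the 4 probe sets lay between -0.32 and 0.13.

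Dnajb9, a co-chaperone that BiP uses in degrading misfolded proteins and a target of XBP1, had the widest range of the 10. It read 8.08, 8.10 and 8.97 on the siRNA-140 arrays, against 7.77, 8.95 and 8.76 on the siRNA-96 arrays. The low arrays were the ones on which Trib3 was high. With 1 array of each group on the side of the other, the difference as labelled was -0.11 ± 0.27 (interval -0.69 to 0.47; limma adjusted p = 0.961).

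Herpud1, an ER membrane protein that gathers the degradation machinery, ran with Trib3. It read 9.21, 9.40 and 8.92 on the siRNA-140 arrays, against 9.19, 8.91 and 8.73 on the siRNA-96 arrays, a difference of 0.23 ± 0.13 (interval -0.05 to 0.51). Its other probe set differed by 0.21, and on both probe sets the groups overlapped. Sdf2l1, a partner of BiP in the ER, read 6.78, 6.80 and 6.62 with siRNA-140, against 6.79, 6.74 and 6.32 with siRNA-96, a difference of 0.12 ± 0.12 (interval -0.13 to 0.37). Its lowest value, on siRNA-96 replicate 3, stood below the other 5, and that array also had the second highest 18S ribosomal RNA control signal of the siRNA arrays (7.86, where siRNA-96 replicate 1 had 10.47 and the others 5.40 to 6.73). The part of that signal in the result was not tested.

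**Figure D2:**
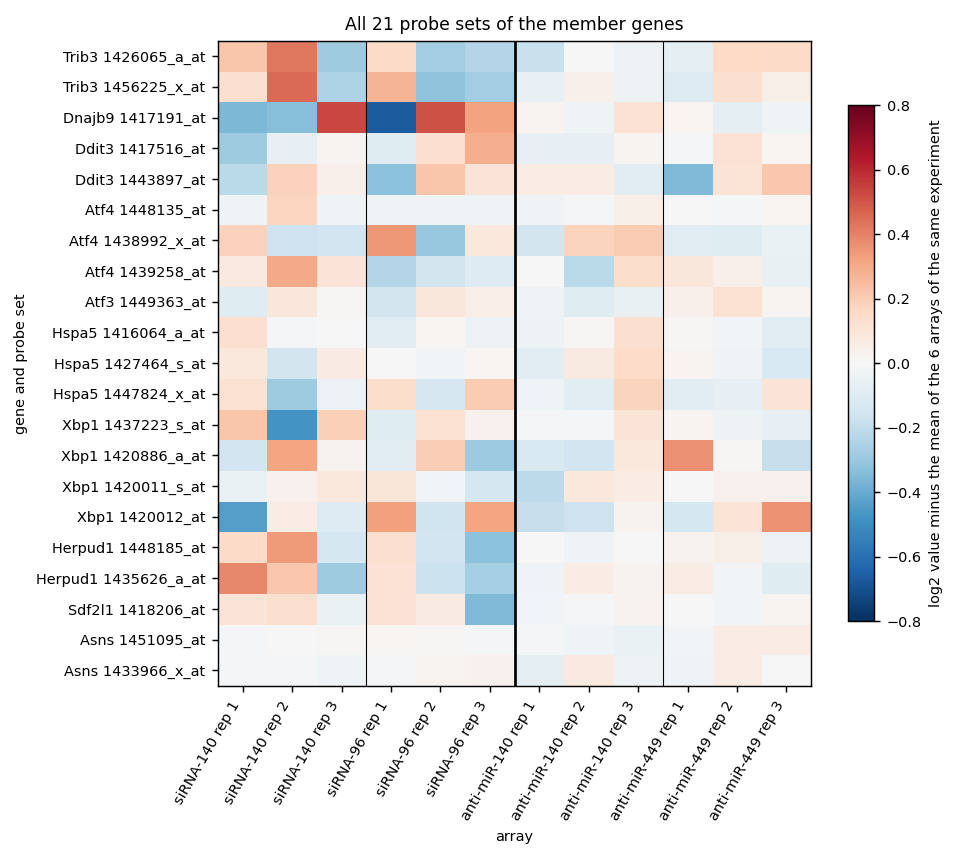
Log2 value of each of the 21 probe sets (rows) on each array (columns), minus the mean of the 6 arrays of the same experiment; red is above and blue below that mean. On siRNA-140 replicates 1 and 2 and siRNA-96 replicate 1 both Trib3 and both Herpud1 probe sets are above the mean and Dnajb9 is below it, and the anti-miR columns are paler.

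Spread was wider in the siRNA experiment. The SD within groups had a median of 0.195 over the 21 probe sets on the siRNA arrays and of 0.0716 on the anti-miR arrays, and it was wider on the siRNA arrays in 15 of 21. Over all probe sets these medians were 0.162 and 0.113, and 31725 of 45037 were wider on the siRNA arrays, a share like that of the members.

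With these 2 arrays (replicate 3 of siRNA-140, replicate 1 of siRNA-96) left out, Dnajb9 was lower and Trib3 and Herpud1 were higher in siRNA-140 replicates 1 and 2 than in siRNA-96 replicates 2 and 3 (n = 2 each). limma then called 5 of the 21 probe sets, where it called 8.98% of all probe sets; 4 were higher (5.13% of all) and 1 lower (3.85% of all). Both Trib3 and both Herpud1 probe sets were among the 5, so the count stands for 3 genes. Fitted on those 4 siRNA arrays alone, 1 of 21 passed, that of Dnajb9, beside 3.87% of all. It was also the 1 of 21 that passed in both fits, as 3.85% of all probe sets did (2.01% higher, 1.84% lower), so the count by the stricter rule is near the background.

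Dnajb9 averaged 8.09 in siRNA-140 replicates 1 and 2, against 8.86 in siRNA-96 replicates 2 and 3. The difference was -0.77 ± 0.11 (limma adjusted p = 0.000565 with 10 arrays and 0.0162 with 4), a fold of 0.588. Trib3 averaged 8.09 in the siRNA-140 arrays and 7.51 in the siRNA-96 arrays, a difference of 0.58 ± 0.12 (adjusted p = 0.00869 with 10 arrays and 0.0585 with 4), or 1.49-fold. Herpud1 differed by 0.48 ± 0.11 (adjusted p = 0.0134 with 10 arrays and 0.127 with 4), or 1.40-fold. Dnajb9 and Herpud1, both of the ER branch, thus differed in opposite directions, Herpud1 passing with 10 arrays only. The part of ER stress in either was not tested.

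The other 7 genes did not pass in that setting. Ddit3 gave -0.39 ± 0.11 (limma adjusted p = 0.0509 with 10 arrays and 0.243 with 4), and its dimmer probe set gave -0.18. With 10 arrays the brighter probe set passed once each array was centred on its median (-0.42, limma adjusted p = 0.0345) or normalized again by quantiles (-0.46, limma adjusted p = 0.0151). Without siRNA-140 replicate 2 as well, its difference was -0.50. Sdf2l1 gave 0.26, Xbp1 -0.21, Atf4 0.10, Atf3 -0.08, Hspa5 0.07 and Asns -0.00. The interval for Asns was -0.21 to 0.20 and that for Hspa5 -0.16 to 0.31. Each fit that left out a further 1 of the 4 arrays had a single array in 1 group, assumed to vary like the others. In these fits Trib3 did not pass without siRNA-140 replicate 2, and Herpud1 did not pass without siRNA-140 replicate 2 or siRNA-96 replicate 3. Dnajb9 differed by -0.67 to -0.86. The 4 arrays were kept for a profile that Dnajb9 follows, so these values are no separate support. Without siRNA-140 replicate 1, which leaves only the low array of its group, Xbp1 gave -0.56. Without siRNA-96 replicate 2, which leaves only the low array of the other group, Sdf2l1 gave 0.47.

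**Figure D3:**
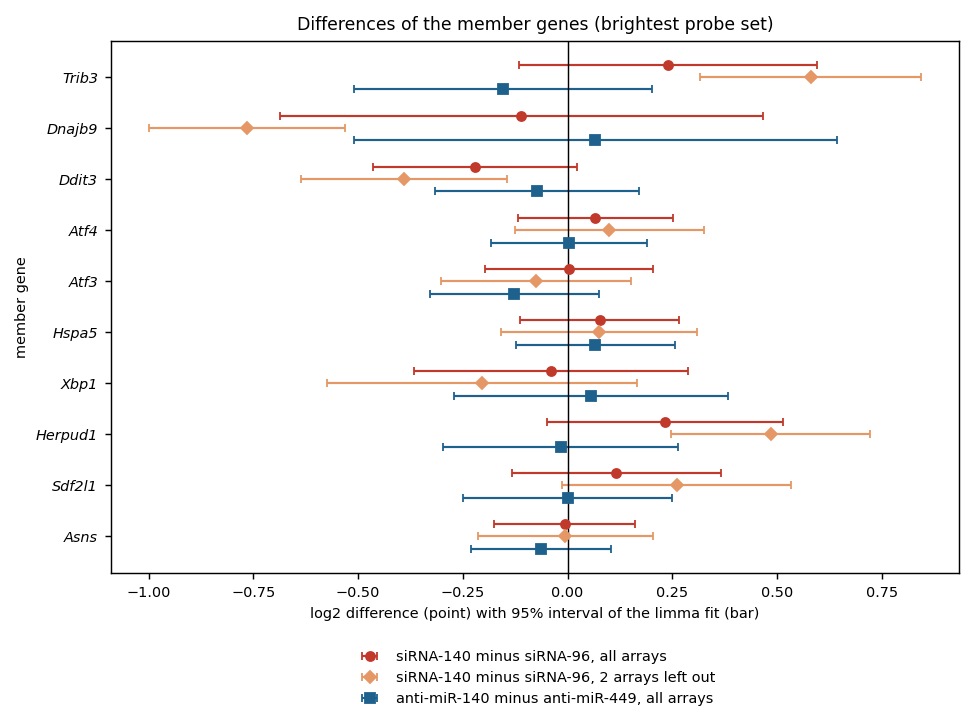
Log2 difference (x axis, point) with its 95% interval from limma (bar) for each of the 10 genes, from top to bottom of each trio: siRNA-140 minus siRNA-96 on all arrays, the same without the 2 arrays, and anti-miR-140 minus anti-miR-449. With the groups as labelled the interval of each of the 10 genes spans 0 in both comparisons, and without the 2 arrays those of Trib3 (0.58), Herpud1 (0.48), Dnajb9 (-0.77) and Ddit3 (-0.39) do not.

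The interferon response genes moved with these 3 members. Without the 2 arrays 20 of the 21 interferon genes were lower with siRNA-140, called with 10 and with 4 arrays, beside 433 of all 18193 genes. The median log2 difference of the 21 was -2.77, against 0.035 over all genes. The mean of the 21 was part of the profile for which the 2 arrays were left out. These calls therefore describe that choice and give no separate support. Array by array, Dnajb9 was 8.76 or more on the 3 siRNA arrays whose interferon mean was 6.22 or more, and 8.10 or less on the 3 whose mean was 4.72 or less. The mean of the mesenchymal markers moved with the same arrays. The mean of the 11 mesenchymal markers was 10.30, 10.30 and 10.51 on the siRNA-140 arrays, against 10.17, 10.53 and 10.51 on the siRNA-96 arrays, low where Trib3 was high. Without the 2 arrays 3 of these 11 genes were lower with 10 arrays, beside 883 of all 18193. With 10 and with 4 arrays 1 was lower, Col3a1, beside 433 of all 18193. Its difference was -1.12 ± 0.10 (limma adjusted p = 1.44e-05 with 10 arrays and 0.00153 with 4), and -0.28 as labelled. Of the 26 mesenchymal probe sets 2 were higher and 3 lower in both fits. Of the 8 endothelial markers 1 was higher in both fits, Tek, beside 444 of all 18193 genes. Its difference was 0.60 ± 0.13 (limma adjusted p = 0.00903 with 10 arrays and 0.0495 with 4), and 0.39 as labelled. Tek lay near the siRNA array medians of 3.95 to 4.02. It read 4.46, 4.27 and 3.88 on the siRNA-140 arrays, against 3.91, 3.76 and 3.77 on the siRNA-96 arrays. There siRNA-96 replicate 1 did not go with siRNA-140 replicates 1 and 2. Of 10 epithelial and 7 blood cell markers none passed in both. The part of the interferon response or of these markers in the level of any member was not tested.

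**Figure D4:**
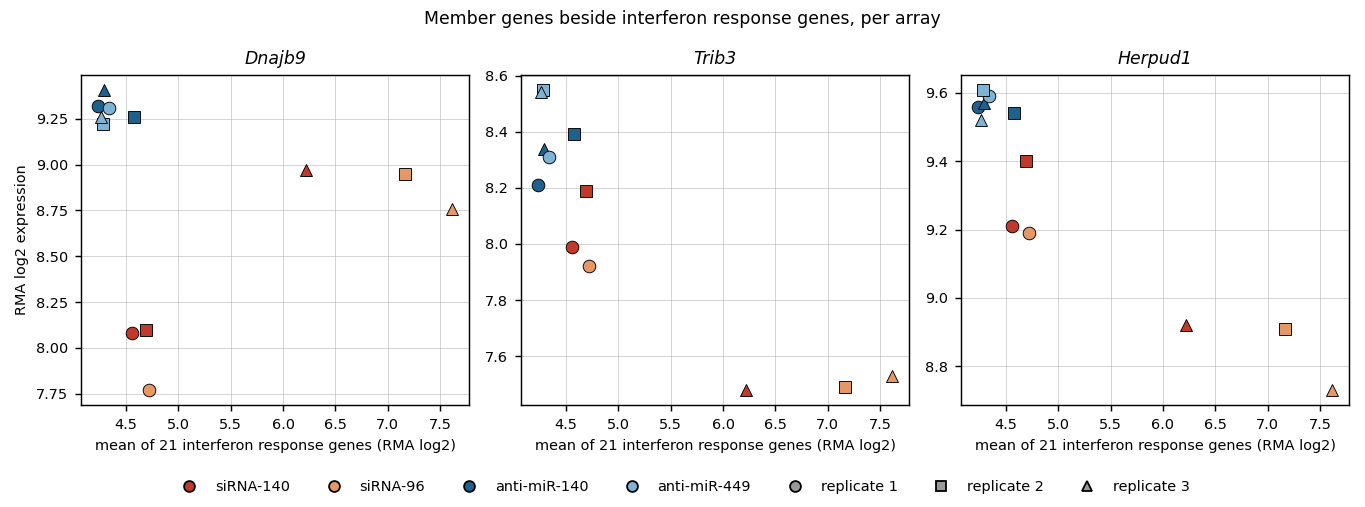
RMA log2 level of Dnajb9, Trib3 and Herpud1 (y axes) against the mean of 21 interferon response genes (x axis) on each of the 12 arrays; colour is the group and symbol the replicate. The siRNA arrays form 2 clusters, at interferon means of 4.55 to 4.72 and of 6.22 to 7.61, and each cluster holds arrays of both groups.

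When endogenous miR-140 was blocked, none of the 10 genes passed the test either, and their differences were small. limma called 0 of 21 probe sets with anti-miR-140 against anti-miR-449, where it called 0% of all probe sets, and at an unadjusted p under 0.05 there were 0 of 21 against 2.27% of all. Differences ran from -0.15 (Trib3) to 0.07 (Dnajb9 and Hspa5), with a median of -0.00833 beside -0.00333 for all genes. Fitted on the 6 anti-miR arrays by themselves, which is not widened by the spread of the siRNA arrays, the intervals of all 10 genes lay between -0.36 and 0.24.

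Dnajb9 read 9.32, 9.26 and 9.41 with anti-miR-140, against 9.31, 9.22 and 9.26 with anti-miR-449, a difference of 0.07 ± 0.27 (interval -0.51 to 0.64). Trib3 read 8.21, 8.39 and 8.34 with anti-miR-140, against 8.31, 8.55 and 8.54 with anti-miR-449, a difference of -0.15 ± 0.17. Both genes had overlapping groups. Herpud1 read 9.56, 9.54 and 9.57 on the anti-miR-140 arrays, against 9.59, 9.61 and 9.52 on the anti-miR-449 arrays. Its groups also overlapped. Sdf2l1 read 7.25, 7.26 and 7.30 after anti-miR-140, against 7.27, 7.25 and 7.29 after anti-miR-449. These 2 genes, spread over 0.67 and 0.48 on the siRNA arrays, were spread over 0.09 and 0.05 here.

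Atf3 was the only gene of the 10 whose anti-miR groups did not overlap. It read 6.94, 6.88 and 6.92 with anti-miR-140, against 7.02, 7.10 and 7.0 with anti-miR-449, a difference of -0.13 ± 0.09 (interval -0.33 to 0.07; limma adjusted p = 1). The groups failed to overlap in 8.4% of all probe sets (4.06% higher, 4.34% lower), so 1 of 21 is no more than the background. Asns read 10.78, 10.76 and 10.74 with anti-miR-140, against 10.77, 10.85 and 10.85 with anti-miR-449 (difference -0.06 ± 0.08). Atf4 differed by 0.00 ± 0.09, Hspa5 by 0.07 ± 0.09, Xbp1 by 0.06 ± 0.15 and Ddit3 by -0.07 ± 0.11.

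The experiments were built to be read against each other, since a direct target should move one way with the mimic and the other way with the blocker. limma called 0 of 21 probe sets for the difference of the responses, and 0% of all, and at an unadjusted limma p under 0.05 there was 1 of 21, the dimmest Atf4 probe set, beside 2.94% of all. Among the brightest probe sets the widest was that of Trib3, at 0.39 ± 0.23 (interval -0.11 to 0.90; adjusted p = 0.997). Without the 2 arrays 3 of 21 passed, where 4.41% of all did (2.28% higher, 2.13% lower): Dnajb9 (-0.83 ± 0.14, adjusted p = 0.00395) and both probe sets of Trib3 (0.73 ± 0.16, adjusted p = 0.0182, for the brighter). This difference rests on the siRNA side, since the anti-miR differences of these genes were 0.07 and -0.15. It could not be fitted on the 4 siRNA arrays alone, so these calls did not meet the rule of 2 fits.

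The pathway around the 10 genes was followed through lists written from general knowledge. With the groups as labelled no gene of any list passed in either comparison. The counts that follow are of the siRNA comparison without the 2 arrays. They take genes that passed with 10 and with 4 arrays, where 444 of 18193 genes were higher and 433 lower. Differences and adjusted p-values given without the 2 arrays are of the fit of 10 arrays unless stated. For the named genes that passed both fits, the limma adjusted p with 4 arrays was larger. It ran from 0.00389 (Eif2ak2) to 0.0467 (Hmox1).

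Of 12 measured sensors and switches of translation, 0 were higher and 1 was lower. That gene was Eif2ak2, the kinase PKR, which double-stranded RNA activates and interferon induces. It read 6.65, 6.82 and 7.40 on the siRNA-140 arrays, against 6.58, 7.68 and 7.85 on the siRNA-96 arrays, with a difference of -1.03 ± 0.17 (limma adjusted p = 0.0015) without the 2 arrays and -0.41 ± 0.28 with them. Its other probe sets gave -0.63 and -0.56. On the siRNA arrays PKR was thus high where the interferon mean was high.

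The other eIF2alpha kinases gave differences of 0.35 ± 0.12 for Eif2ak3, the ER-bound PERK (limma adjusted p = 0.0908; 0.20 as labelled), 0.09 ± 0.12 for Eif2ak4, the amino acid sensor GCN2 (-0.45 at its other probe set), and 0.05 ± 0.11 for Eif2ak1, the haem-regulated HRI. Ern1, which encodes IRE1, gave 0.47 ± 0.11 and passed with 10 arrays (adjusted p = 0.0156) but not with 4 (0.12; 0.33 as labelled), and its other probe sets gave -0.11 to 0.11. Atf6 gave 0.06 ± 0.17, and Ppp1r15a, the phosphatase subunit GADD34 that ends the response, 0.07 ± 0.14. With anti-miR-140 these 6 genes differed by -0.18 (Ern1) to 0.23 (Atf6) and Eif2ak2 by 0.22, and none passed.

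Of 27 measured targets of ATF4 and CHOP, 3 were higher and 0 lower, with a median log2 difference of 0.165 beside 0.035 for all genes. The median over all genes, here and below, includes dim genes and was not matched for level. The list of ER chaperones had a median of 0.1175 and that of ER degradation and translocation 0.04. Ero1a, the oxidase that drives disulfide formation in the ER, read 9.04, 9.18 and 8.18 on the siRNA-140 arrays, against 9.0, 8.17 and 8.23 on the siRNA-96 arrays. Without the 2 arrays it was higher by 0.91 ± 0.10 (limma adjusted p = 0.000102; 0.33 ± 0.24 as labelled), with 0.51 and 0.81 at its other probe sets. Cth, which makes cysteine from cystathionine, was higher by 0.82 ± 0.12 (0.23 ± 0.24 as labelled) and the glycine transporter gene Slc6a9 by 0.68 ± 0.11 (0.24 ± 0.19 as labelled). All 3 were high on the arrays on which Trib3 was high. The serine synthesis genes Psat1 and Phgdh, the brightest of the list, gave 0.04 and 0.07.

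Of 12 measured aminoacyl-tRNA synthetases, which ATF4 raises when amino acids run short, 0 passed in both fits, and Lars passed with 10 arrays (0.38, limma adjusted p = 0.0428) but not with 4. Their median was 0.168 beside 0.035 for all genes, and the brightest, Aars and Nars, gave 0.10 and 0.13.

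Of 20 measured ER chaperones and folding enzymes, 1 was higher and 0 lower. Sil1, the exchange factor of BiP, was higher by 0.66 ± 0.11 (limma adjusted p = 0.00204; 0.19 ± 0.20 as labelled). The lectin chaperone gene Calr gave -0.07, with -0.29 and -0.20 at its other probe sets, and P4hb, a protein disulfide isomerase gene, 0.03, beside 0.07 for Hspa5.

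Of 21 measured genes of ER degradation and translocation, 1 was higher and 1 lower. Derl2, a channel protein of the degradation machinery, read 8.54, 8.83 and 7.91 with siRNA-140, against 8.64, 7.95 and 7.87 with siRNA-96, and was higher by 0.78 ± 0.13 (limma adjusted p = 0.00172) without the 2 arrays (0.27 ± 0.22 as labelled), but its other probe set gave -0.11. Ube2j1, a ubiquitin-conjugating enzyme of the ER membrane, read 8.41, 8.49 and 9.34 with siRNA-140, against 8.33, 9.28 and 9.18 with siRNA-96. Its difference was -0.78 ± 0.11 (adjusted p = 0.00041; -0.18 ± 0.24 as labelled), an arrangement and a size like those of Dnajb9, but its other probe set gave 0.40, so no direction is given for the gene. Sel1l, Edem1 and Ssr1 (0.49, 0.45 and 0.49) passed with 10 arrays and not with 4 (0.31, 0.32 and 0.24 as labelled).

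Genes of other stress responses were set beside these. Of 13 cytosolic heat shock genes 0 passed in either direction by their brightest probe set, with a median of 0.055, and the brightest, Hspa8 and Hsp90aa1, gave -0.05 and 0.06. Of the 32 probe sets of this list, however, 2 dimmer ones were lower in both fits, and the probe sets of Hspa4l disagreed, with 0.32 at the brightest and as low as -1.06 at the others. Of 9 genes of the oxidative stress response 3 were higher and 0 lower: Srxn1 by 0.78 ± 0.12, the haem oxygenase gene Hmox1 by 0.69 ± 0.13 and Gclm, of glutathione synthesis, by 0.67 ± 0.12 (limma adjusted p = 0.000856, 0.00502 and 0.00291; 0.36, 0.31 and 0.35 as labelled). Their list median was 0.415, and of the 18 probe sets of the list 4 were higher and 1 lower in both fits. The dimmer probe sets gave as little as -0.09 for Srxn1 and 0.04 for Gclm.

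**Figure D5:**
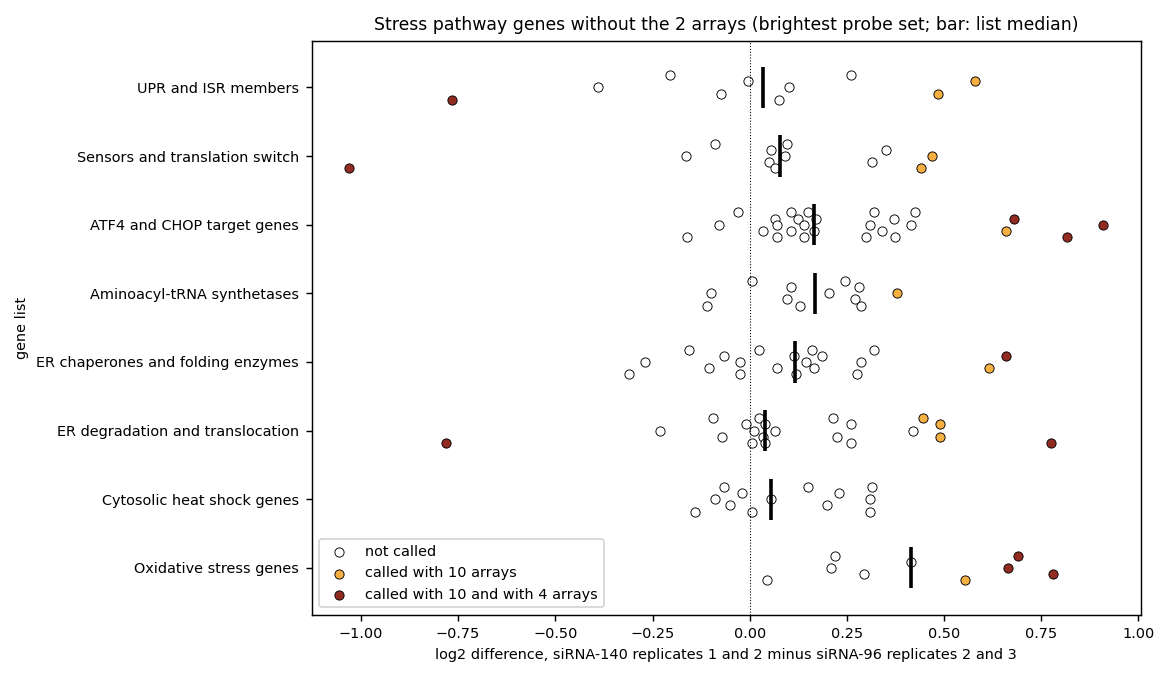
Log2 difference of siRNA-140 replicates 1 and 2 minus siRNA-96 replicates 2 and 3 (x axis) for the brightest probe set of each measured gene in 8 lists (rows); fill shows the fits in which a gene was called and the bar is the list median. The median is 0.165 for ATF4 and CHOP targets and 0.415 for oxidative stress genes, and Dnajb9 and Eif2ak2 are the far points on the left of the upper rows.

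The genes whose pattern was most like that of the 3 most variable members were ranked by Pearson's r over the 12 arrays, each experiment centred on its mean, among 8211 other genes. The siRNA arrays fall into clusters, so r mostly restates which arrays lie together and is given as a description. Nearest to Dnajb9 were Thap2, Ski and Ajuba (r = 0.99 for each). Thap2 read 6.22, 6.34 and 7.34 on the siRNA-140 arrays, against 5.79, 7.37 and 7.01 on the siRNA-96 arrays. Nearest to Trib3 were Ahnak2, Fndc3b and Pafah2 (r = 0.97 to 0.98). Nearest to Xbp1 were Tfap2a, Rp2 and Rnf20 (r = 0.94 to 0.95), which shared the low value of its brightest probe set on siRNA-140 replicate 2. The other probe sets of Xbp1 did not share that value.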

How the data were processed

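RNA of 12 samples was labelled with biotin and hybridised to Affymetrix arrays. The deposited values are log2 expression made by the authors with RMA, per the submitters' processing notes; for its version, the probe set definition, the build and which arrays were normalized together: not given in the sources used here. Of 45101 probe sets, 64 array controls were left out and 45037 tested, with no filter on level. Symbols came from the platform annotation: 34945 tested probe sets had 1 symbol, 932 several and 9160 none. All 10 member genes matched a RefSeq gene ID (GRCm38.p6).

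With limma 3.58.1 (R 4.3.3), 4 group means over 12 arrays were fitted to each probe set with moderated variances. Probe sets with a Benjamini-Hochberg adjusted p under 0.05 over all 45037 were called. Intervals are 95% intervals and ± after a difference is its SE. The fit was tested on simulated data, in which the siRNA experiment, whose probe sets have unequal spread in the 2 experiments, gave more false calls than the nominal share; calls without the 2 arrays were therefore also required in a fit of the 4 remaining siRNA arrays. The number of arrays limits the precision.

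The members and the gene lists were chosen with earlier results of these data known, and the lists were written from general knowledge. Named genes were every member, the sensors and Ppp1r15a. Of each list up to 4 genes called in both fits were named, by size, or the 2 brightest where none was called. Brightest genes, some genes called in 1 fit (Ern1 aside: Vldlr, Mbtps2, Sel1l, Edem1, Ssr1, Lars), Hspa4l and cell type markers were added after their values were seen. Same-numbered siRNA replicates had correlations of deviations from their group means of 0.41, -0.241 and 0.439, and anti-miR replicates of -0.0137, 0.103 and -0.0316, so the numbers were not taken as pairs. Alternatives were the experiment's 6 arrays alone, a replicate block, quantile normalization, median centring, a level filter, trended robust variances, array weights, each array left out, the 2 arrays left out, an unadjusted p and the mean of a gene's probe sets.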

Additional observations from a re-analysis of the deposited data

How the results depend on the processing

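The counts of 0 for the members held, in all 3 comparisons, in the fits of 6 arrays (not made for the difference of the responses), after quantile normalization or median centring of 12 arrays, with the level filter, with trended robust variances, with array weights and with the replicate block (0 calls in each comparison, over all probe sets and over the members); the replicate numbers were not taken as pairs. With each of the 12 arrays left out in turn the members' count was 0 to 0 in every comparison, and that over all probe sets 0 to 36 for the siRNA comparison (36 without siRNA-96 replicate 1, 25 without siRNA-96 replicate 2), 0 to 0 for the anti-miR comparison and 0 to 1 for the difference of the responses. At an unadjusted p under 0.05 the calls were 2292, 1022 and 1322 of all probe sets in the 3 comparisons, and 1, 0 and 1 of the members.

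With siRNA-140 replicate 3 left out together with siRNA-96 replicate 1, the siRNA comparison called 4043 probe sets with 10 arrays, 1743 with the 4 siRNA arrays alone, 3848 after median centring and 4398 after quantile normalization, and of the members 5, 1, 6 and 6. The share of higher calls was 2310 of 4043, against 1965 of 3848 centred and 2186 of 4398 quantile normalized. The difference of the responses called 1985, 1850 and 2235 with 10 arrays, centred and quantile normalized, and of the members 3, 2 and 3. Chosen after seeing the data, a further array was left out: the calls were 4828 without replicate 1 and 2567 without replicate 2 of siRNA-140 (6 and 3 of the members), and 3083 without replicate 2 and 2400 without replicate 3 of siRNA-96 (5 and 3 of the members). In those fits 1 group has a single array, assumed to vary like the others. Of 730 alternative values of the 10 genes, 30 passed the test, none with a changed sign, and 53 that did not pass changed sign; the cause was not tested. Each value that passed came from a fit with the 2 arrays left out, and some of these fits had a single array in 1 group. The siRNA arrays kept in them were chosen by their profile. The shared sign of the passing values is therefore no separate support. Dim probe sets, such as those of Atf4 and Ddit3, limit what can be read from them.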
